A study of Mus musculus with 6 samples.

Results

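The transcripts of the mouse mitochondrial genome were measured in hearts of wild-type mice (WT) and of knockout mice without ACKR4, an atypical chemokine receptor (ACKR4_KO). They comprise every row of the count table whose Ensembl identifier carries a mouse symbol beginning with mt-. This gave 37 of 54532 rows, made up of 13 mRNAs, 2 rRNAs and 22 tRNAs. For all 6 libraries the labels give C57BL/6 mice of 8 to 10 weeks, and tissue was taken at day 14 after a myocardial infarction. There were 3 libraries of each genotype, and no uninfarcted heart was among the samples, so both groups carry the injury. The labels do not say how the knockout was made or which region of the heart was sampled, and nothing in them states that each library came from its own animal. The p-values therefore measure the spread between these libraries.

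Values of single libraries are listed in the order of replicates 1, 2 and 3 of a genotype. The total count was 9422462 to 13910358 reads per library. Ackr4, the targeted gene, had 165, 151 and 169 reads in WT and 4, 1 and 12 reads in ACKR4_KO, in the direction of the labels. The tissue was heart by its markers, since 10 of 10 cardiomyocyte genes passed the filter on low counts and summed to between 29396 and 50477 CPM (counts per 1000000 reads of the TMM-scaled library size). Markers of lung epithelium summed to 230, 37.6 and 112 CPM in WT and to 0.323, 0.82 and 1.83 CPM in ACKR4_KO. Markers of fast skeletal muscle summed to 3.89, 85.2 and 109.6 CPM and to 2.42, 8.61 and 4.02 CPM. The part of this other tissue in any result below was not tested.

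The mitochondrial genome is a small circle that encodes core subunits of respiratory complexes I, III and IV and of the ATP synthase, together with the rRNAs and tRNAs of the mitochondrion's own ribosome. Both of its strands are transcribed as long precursors. The tRNAs lie between most of the other genes and are cut out by dedicated nucleases, which frees the mRNAs and rRNAs on either side. Most of the mRNAs then receive short poly(A) tails. Heart muscle is rich in mitochondria, so these transcripts make up a large share of cardiac RNA.

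A long stretch of this genome also exists as a copy in the nuclear genome, and the values of several genes cannot be read without it. On GRCm38, the same assembly as mm10, 7 annotated pseudogene rows on the minus strand of chr1:24611535-24616197 matched the mitochondrial stretch chrM:6390-11042, in the same order and with a spacing that differed by at most 1 base. The nuclear rows match 31.3% of mt-Co1 and 63.6% of mt-Nd4 at an identity of at least 99%. For mt-Co2, mt-Atp6, mt-Co3, mt-Nd3 and mt-Nd4l the match covers between 99% and 99.9% of the gene. By position the stretch also takes in mt-Atp8 and the tRNA genes mt-Ts1, mt-Td, mt-Tk, mt-Tg and mt-Tr, for which no look-alike row was found.

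The first 90 bases of mt-Co2 (chrM:7013-7102, plus strand, the start of the coding sequence of cytochrome c oxidase subunit 2) show how alike the copies are. They are set beside the corresponding bases of Gm28661 (chr1:24615476-24615565, minus strand) and of Gm13341, a less similar copy (chr2:22587873-22587962, minus strand). Capitals mark the bases at which Gm13341 differs from mt-Co2, namely C25T and G57A, with positions counted from 1 at the start of mt-Co2.
mt-Co2: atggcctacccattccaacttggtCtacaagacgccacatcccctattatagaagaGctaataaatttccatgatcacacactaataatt
Gm28661: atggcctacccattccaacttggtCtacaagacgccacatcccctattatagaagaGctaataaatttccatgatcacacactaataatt
Gm13341: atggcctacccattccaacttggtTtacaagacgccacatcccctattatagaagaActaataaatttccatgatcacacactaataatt
Between mt-Co2 and Gm28661 there were 0 differences in this window, so a read that falls within it has no base that assigns it to one row or the other. Gm13341 differed at 2 positions. It had few reads, namely 7, 2 and 3 in WT against 7, 5 and 21 in ACKR4_KO.

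Over their aligned bases, 2 substitutions separated the 7 rows on chromosome 1 from the mitochondrial genes they match. One, T3C, lies at base 3 of mt-Nd3 (chrM:9459-9491, plus strand) against Gm28438 (chr1:24613087-24613119, minus strand), and capitals mark it here.
mt-Nd3: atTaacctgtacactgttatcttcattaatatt
Gm28438: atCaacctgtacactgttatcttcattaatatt
The other, A1066T, lies at base 1066 of mt-Co1 (chrM:6390-6423, plus strand) against Gm29216 (chr1:24616155-24616188, minus strand), again in capitals.
mt-Co1: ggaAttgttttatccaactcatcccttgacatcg
Gm29216: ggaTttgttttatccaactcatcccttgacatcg
The labels and notes do not state how reads that map to more than one place were counted. The counts of genes inside the copied stretch are therefore uncertain.

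Mitochondrial transcripts took a large and variable share of the reads in both genotypes, and the share did not differ between them beyond the spread between libraries. In WT they made up 19.4%, 15.8% and 18.9% of all counted reads, and in ACKR4_KO they made up 18.9%, 21.4% and 16%. The highest and the second lowest library were both ACKR4_KO, and the groups overlapped. The mean share was 18.0% ± 1.97 (SD, n = 3) in WT and 18.8% ± 2.7 (SD, n = 3) in ACKR4_KO, a difference of 0.754 percentage points (two-sided exact permutation p = 0.7, adjusted p = 0.9). With 3 libraries against 3, this test cannot give a p below 0.1. Adjustment was by Benjamini-Hochberg over a family of 7 single-value comparisons, in which every adjusted p was 0.9. The widest 95% Wilson interval of a library's share spanned 0.0485 percentage points, which covers counting error only and is far narrower than the spread between libraries.

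The sign of this difference rested on single libraries. Without ACKR4_KO replicate 2 the difference was -0.557 percentage points, and without ACKR4_KO replicate 3 it was 2.14 percentage points. The mRNAs supplied most of the share. They took 18.8%, 15.2% and 18.3% of reads in WT and 18.2%, 20.3% and 15.6% in ACKR4_KO, a difference of 0.625 percentage points (exact permutation p = 0.8).

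The rRNAs and tRNAs varied more between ACKR4_KO libraries than between WT libraries. The rRNAs took 0.515%, 0.513% and 0.549% of reads in WT and 0.606%, 0.991% and 0.349% in ACKR4_KO. ACKR4_KO replicate 2 was above and ACKR4_KO replicate 3 below every WT library. The means were 0.526% ± 0.0205 (SD, n = 3) and 0.648% ± 0.323 (SD, n = 3), a difference of 0.123 percentage points (exact permutation p = 0.7). The tRNAs took 0.0738%, 0.063% and 0.0698% in WT and 0.0785%, 0.106% and 0.0411% in ACKR4_KO, again with ACKR4_KO replicate 2 highest and replicate 3 lowest. Their difference was 0.00627 percentage points (exact permutation p = 0.7). Without ACKR4_KO replicate 2 these differences were -0.0483 points for rRNA and -0.00904 points for tRNA, and without replicate 3 they were 0.273 and 0.0233 points. The difference in spread itself was not tested.

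**Figure D1:**
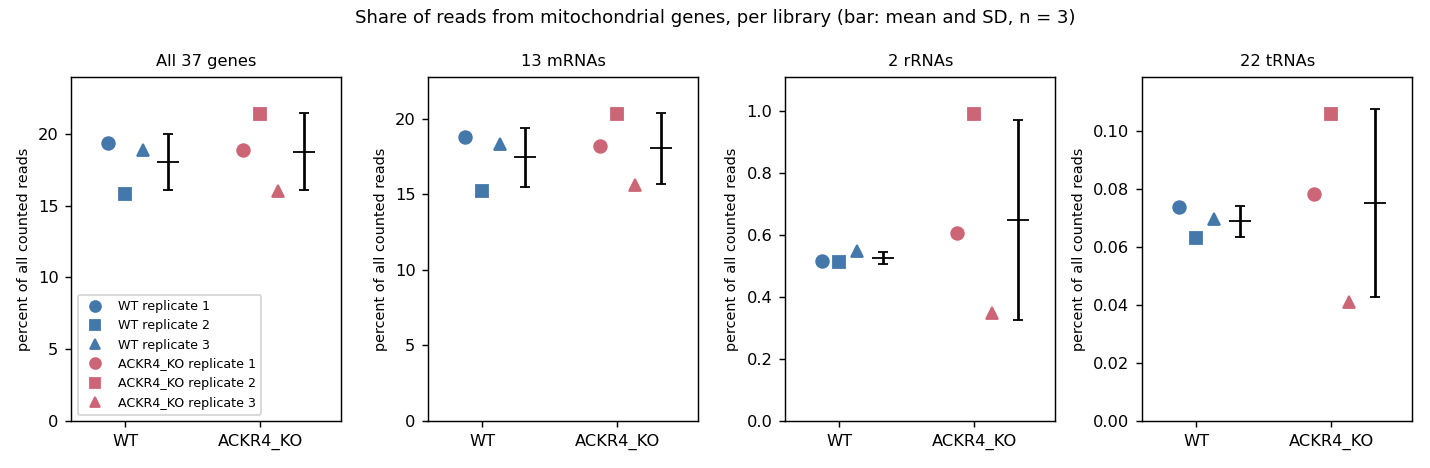
Shares of all mitochondrial genes and of the mRNAs, rRNAs and tRNAs in each library, by genotype, with the percent of all counted reads on the vertical axes. Points are libraries and bars show the mean and SD (n = 3). The groups overlap in every panel, and for rRNA the ACKR4_KO libraries run from 0.349% to 0.991% of reads, against 0.513% to 0.549% in WT.

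The balance between the classes of mitochondrial RNA followed the same libraries for rRNA and tRNA. There were 2.74, 3.38 and 3.0 rRNA reads per 100 mitochondrial mRNA reads in WT, and 3.32, 4.88 and 2.23 in ACKR4_KO. ACKR4_KO replicate 2 was highest and replicate 3 lowest of all 6 (difference 0.439, exact permutation p = 0.8). For tRNA the values were 0.392, 0.414 and 0.381 per 100 in WT and 0.43, 0.521 and 0.263 per 100 in ACKR4_KO (difference 0.00866, exact permutation p = 0.9). mt-Nd6, the one mRNA encoded on the opposite strand to all the others, had 2.57, 2.83 and 2.4 reads per 100 mitochondrial mRNA reads in WT and 2.55, 2.22 and 2.37 in ACKR4_KO. The groups overlapped, with means of 2.6 ± 0.219 (SD, n = 3) and 2.38 ± 0.169 (SD, n = 3) and a difference of -0.223 (exact permutation p = 0.2, adjusted p = 0.9).

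Among the mRNAs and rRNAs, levels per length formed an upper and a lower tier, and the mRNAs of the lower tier were those of the copied stretch. Levels are compared here as RPKM, the reads scaled to gene length and to the total count of the library, as the mean ± SD over all 6 libraries. mt-Co1, the catalytic subunit of cytochrome c oxidase, was highest at 50814 ± 7551.5 RPKM. Next came mt-Cytb, the cytochrome b of complex III, at 25214 ± 1894 RPKM and mt-Nd1 at 21632 ± 2123 RPKM, whose spreads touched, and then mt-Nd2 at 13112 ± 1661 RPKM. mt-Nd4 (9857 ± 895 RPKM), mt-Nd5 (8505 ± 1651 RPKM) and mt-Nd6 (8476 ± 759 RPKM) followed within one another's spread. mt-Rnr2, the large ribosomal RNA, lay at 2610.2 ± 1103 RPKM and mt-Rnr1, the small ribosomal RNA, at 1823 ± 438 RPKM, and these spreads also overlapped.

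Below the rRNAs stood the 6 mRNAs that lie wholly inside the copied stretch. They were mt-Co2 at 1152 ± 707 RPKM, mt-Co3 at 972.5 ± 768 RPKM, mt-Atp6 at 727 ± 426.5 RPKM, mt-Nd4l at 467 ± 226 RPKM, mt-Nd3 at 324 ± 90.2 RPKM and mt-Atp8 at 41.4 ± 61.5 RPKM. Their neighbours in this order did not differ beyond their spread, mt-Nd3 and mt-Atp8 excepted. The spreads of mt-Co2 and mt-Co3 each reached those of mt-Rnr1 and mt-Rnr2. The median level of the 5 mRNAs wholly outside the stretch (mt-Nd1, mt-Nd2, mt-Nd5, mt-Nd6 and mt-Cytb) was 22 times that of the 6 inside it. mt-Co1 and mt-Nd4, which the copy covers in part, were in the upper tier. How much of the low tier comes from the handling of reads shared with chromosome 1 was not tested. Variation between libraries of a genotype reached higher values there, with overlapping ranges. The coefficient of variation of the 6 mRNAs inside the stretch was 9.81% to 78.1% in WT and 23.5% to 140.1% in ACKR4_KO, against 7.67% to 19.6% and 10.9% to 27.3% for the other mRNAs.

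**Figure D2:**
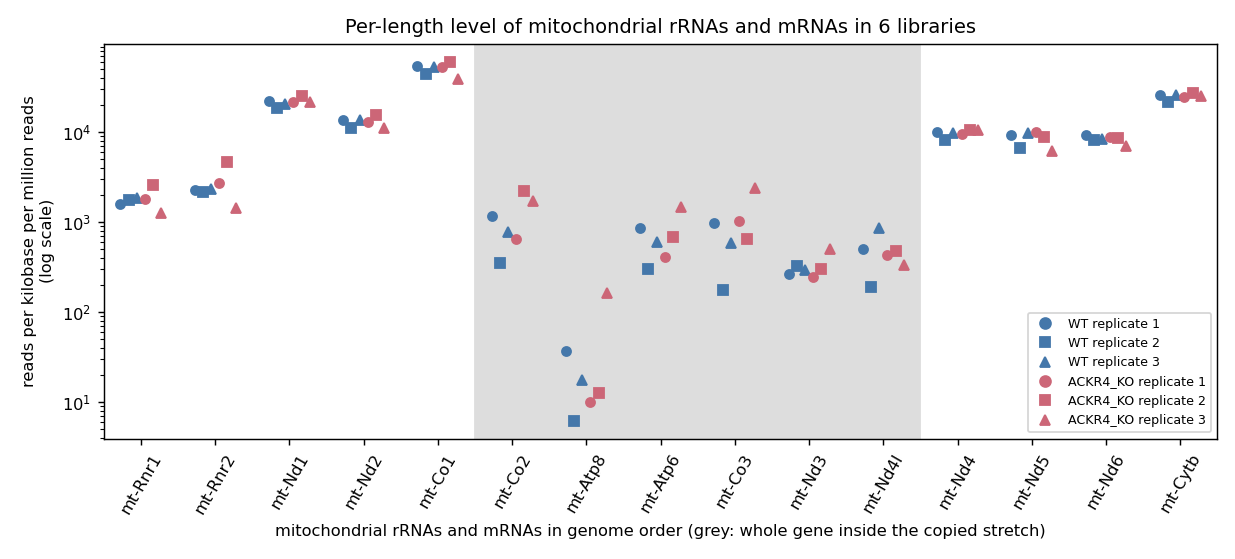
Level of each mitochondrial rRNA and mRNA in each library, as RPKM on a log scale, with genes in genome order and grey marking those wholly inside the copied stretch. The genes in grey have means between 41.4 and 1152 RPKM, below mt-Rnr1 at 1823 RPKM and every other gene plotted.

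The rows on chromosome 1 took 0.102%, 0.132% and 0.0917% of all reads in WT and 0.12%, 0.12% and 0.153% in ACKR4_KO. The 6 mRNAs inside the stretch took 0.242%, 0.0759% and 0.176% in WT and 0.175%, 0.274% and 0.441% in ACKR4_KO. Leaving aside Gm29216 and Gm28439, which copy parts of mt-Co1 and mt-Nd4, the remaining 5 rows held 134 reads per 100 reads of these 6 mRNAs in WT replicate 2 and between 26.4 and 34.4 per 100 in the other libraries. The 5 mRNAs wholly outside the stretch took 8.76%, 7.09% and 8.63% in WT and 8.56%, 9.2% and 7.62% in ACKR4_KO, and these groups overlapped as well. Gm10925, the copy of mt-Atp6, had 2770, 4072 and 2452 reads in WT and 1816, 2442 and 4734 reads in ACKR4_KO. A further copy on chromosome 2, Gm13340, matches all of mt-Co1 at 97.6% identity and had 446, 186 and 500 reads in WT and 318, 416 and 1054 in ACKR4_KO.

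No mitochondrial gene passed the test between genotypes. In CPM, ACKR4_KO replicate 2 was the highest library for 8 of the 13 mRNAs, and WT replicate 2 was the lowest for 9. ACKR4_KO replicate 2 also had the lowest TMM factor (0.891), which raises its CPM. On unscaled totals mt-Nd4 was highest in ACKR4_KO replicate 3, mt-Nd5 in ACKR4_KO replicate 1 and mt-Nd6 in WT replicate 1. Of the 37 genes, 31 passed the filter on low counts and were fitted with edgeR's quasi-likelihood test. Of these, 0 had an adjusted p under 0.05, as among all 14406 genes tested (0%). Even Ackr4, the targeted gene, was not called (log2 fold change -4.7, edgeR adjusted p = 0.099). The lack of calls in this test therefore does not show that levels were equal between genotypes. DESeq2 also called 0 members, against 0.234% of the rows to which it gave an adjusted p. An unadjusted p under 0.05 was reached by 2 of the 31 in edgeR, against 7.45% of all genes. That count was 3, 1 and 0 without WT replicates 1, 2 or 3, where 4.19%, 4.5% and 3.34% of all genes reached it. It was 4, 0 and 10 without ACKR4_KO replicates 1, 2 or 3, where 13.2%, 6.79% and 12.8% of all genes did. By count, 27 of the 31 had a higher and 4 a lower fitted level in ACKR4_KO, and the median log2 fold change was 0.26 beside 0.012 for all genes tested. The count of higher genes depended on ACKR4_KO replicate 2, for without it 11 of 31 were higher and the median was -0.10. Without ACKR4_KO replicate 3, 29 were higher and the median was 0.42. Scaled to the reads of the mitochondrial mRNAs instead, 19 of 31 were higher with a median of 0.10, and the median of all genes moved to -0.12.

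Complex I, the NADH dehydrogenase that feeds electrons into the chain, draws 7 subunits from the mitochondrial genome. mt-Nd1 measured 20795, 17264 and 18857.5 CPM in WT and 20650.2, 27007 and 20573 CPM in ACKR4_KO. ACKR4_KO replicate 2 stood above the rest, and the other libraries of both groups intermingled (log2 fold change 0.26 ± 0.23 SE, edgeR adjusted p = 0.786). mt-Nd2 had 14217, 11273 and 13696 CPM in WT and 13329, 18103 and 11649 CPM in ACKR4_KO. It followed the same order at the top, with ACKR4_KO replicate 2 highest and WT replicate 2 lowest (log2 fold change 0.14 ± 0.24 SE, edgeR adjusted p = 0.903). mt-Nd4 was at 13837, 10992 and 12904 CPM in WT and 13195, 16401 and 14622 CPM in ACKR4_KO, and here both of the highest libraries were ACKR4_KO while WT replicate 1 exceeded ACKR4_KO replicate 1 (log2 fold change 0.23 ± 0.21 SE, edgeR adjusted p = 0.799).

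mt-Nd5 had 16923, 11818 and 17048 CPM in WT and 18108, 18341 and 11218 CPM in ACKR4_KO. One library of each genotype was low and the remaining libraries lay close together (log2 fold change 0.058 ± 0.27 SE, edgeR adjusted p = 0.968). mt-Nd6 measured 4771, 4174 and 4204.5 CPM in WT and 4606, 5061 and 3673 CPM in ACKR4_KO, with the WT libraries between the ACKR4_KO extremes (log2 fold change 0.021 ± 0.20 SE, edgeR adjusted p = 0.984). mt-Nd5 and mt-Nd6 overlap by 14 bases on opposite strands. The strand setting of the counting is not stated, so reads from the opposite strand of mt-Nd6 cannot be told apart from its own.

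The 2 small complex I genes inside the copied stretch were far lower. mt-Nd3 had 92.0, 111.6 and 99.2 CPM in WT and 85.4, 118 and 173 CPM in ACKR4_KO. ACKR4_KO replicate 3 was highest and ACKR4_KO replicate 1 lowest (log2 fold change 0.31 ± 0.23 SE, edgeR adjusted p = 0.756). Without ACKR4_KO replicate 3 it was 0.016, and without ACKR4_KO replicate 1 it was 0.53. mt-Nd4l had 148, 55.6 and 247 CPM in WT and 126, 158 and 98.5 CPM in ACKR4_KO, with the widest range in WT (log2 fold change -0.24 ± 0.5 SE, edgeR adjusted p = 0.921). It overlaps mt-Nd4 by 7 bases. Together the complex I genes made up 38.1% ± 0.238 (SD, n = 3) of mitochondrial mRNA reads in WT and 38.7% ± 1.31 (SD, n = 3) in ACKR4_KO.

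mt-Cytb, the single mitochondrially encoded subunit of complex III, measured 29608, 24167 and 28847 CPM in WT and 27895.5, 34866 and 28568 CPM in ACKR4_KO. Only ACKR4_KO replicate 2 exceeded the WT range (log2 fold change 0.14 ± 0.23 SE, edgeR adjusted p = 0.889). Its share of mitochondrial mRNA reads was 16%, 16.4% and 16.5% in WT and 15.5%, 15.3% and 18.4% in ACKR4_KO.

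Of the complex IV subunits, which pass electrons to oxygen, mt-Co1 was the most read. It had 82837, 66871 and 78071.5 CPM in WT and 80807, 105420.5 and 60613 CPM in ACKR4_KO. ACKR4_KO held both the highest and the lowest library (log2 fold change 0.12 ± 0.28 SE, edgeR adjusted p = 0.929). It supplied 44.7%, 45.4% and 44.5% of mitochondrial mRNA reads in WT and 44.8%, 46.2% and 39.0% in ACKR4_KO, where replicate 3 lay outside the range of the other libraries.

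mt-Co2, which accepts electrons from cytochrome c, had 802, 232 and 508 CPM in WT and 438, 1696 and 1186 CPM in ACKR4_KO. ACKR4_KO replicates 2 and 3 were above and replicate 1 was within the WT range (log2 fold change 1.11 ± 0.6 SE, edgeR adjusted p = 0.701). mt-Co3, a structural core subunit, had 754, 133 and 440.1 CPM in WT and 803, 577.5 and 1876 CPM in ACKR4_KO, with WT replicate 2 lowest and ACKR4_KO replicate 3 highest (log2 fold change 1.29 ± 0.7 SE, edgeR adjusted p = 0.701). Both lie wholly inside the copied stretch. When the reads of the look-alike rows were added to their genes, the log2 fold changes were 0.93 for mt-Co2 and 1.09 for mt-Co3, with adjusted p of 0.671 and 0.681. In the same setting mt-Atp6 was at 0.41, mt-Nd3 at 0.39 and mt-Nd4l at -0.11. With each library left out in turn, mt-Co2 ranged from 0.66 (without ACKR4_KO replicate 2) to 1.58 (without WT replicate 1), and mt-Co3 from 0.64 (without ACKR4_KO replicate 3) to 1.92 (without WT replicate 1).

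The ATP synthase genes mt-Atp6, which forms the proton path with the ring of c subunits, and mt-Atp8, a small membrane subunit, made up 0.227% ± 0.0902 (SD, n = 3) of mitochondrial mRNA reads in WT and 0.353% ± 0.28 (SD, n = 3) in ACKR4_KO. mt-Atp6 had 583, 202 and 389 CPM in WT and 274, 528 and 1012.5 CPM in ACKR4_KO. Again WT replicate 2 was lowest and ACKR4_KO replicate 3 highest (log2 fold change 0.63 ± 0.55 SE, edgeR adjusted p = 0.796). This value was 0.036 without ACKR4_KO replicate 3, 0.32 without WT replicate 2, 0.98 without ACKR4_KO replicate 1 and 1.03 without WT replicate 1. mt-Atp8 had 7.47, 1.23 and 3.44 CPM in WT and 2.02, 2.87 and 33.4 CPM in ACKR4_KO, where replicate 3 alone stood above the WT range. Its log2 fold change was 1.64 ± 1.2 SE (edgeR adjusted p = 0.756) and became -0.76 without ACKR4_KO replicate 3. The mt-Atp8 gene (chrM:7766-7969, plus strand) is shown because its last 43 bases, in capitals, are also the first of mt-Atp6, so a read within them belongs to both genes.
mt-Atp8: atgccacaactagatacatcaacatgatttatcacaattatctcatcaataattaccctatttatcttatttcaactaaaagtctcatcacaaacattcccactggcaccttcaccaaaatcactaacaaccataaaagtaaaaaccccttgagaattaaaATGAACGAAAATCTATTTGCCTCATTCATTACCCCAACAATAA

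The rRNAs differed widely between ACKR4_KO replicates 2 and 3. mt-Rnr1 had 1502, 1629.9 and 1704 CPM in WT and 1731, 2794 and 1215 CPM in ACKR4_KO (log2 fold change 0.25 ± 0.29 SE, edgeR adjusted p = 0.838). mt-Rnr2 had 3569, 3344 and 3558 CPM in WT and 4257, 8341 and 2251.5 CPM in ACKR4_KO (log2 fold change 0.50 ± 0.41 SE, edgeR adjusted p = 0.777). For both, ACKR4_KO replicates 1 and 2 were above every WT library and replicate 3 was below every one. There were 2.38, 2.05 and 2.09 mt-Rnr2 reads per mt-Rnr1 read in WT and 2.46, 2.99 and 1.85 in ACKR4_KO, with the highest ratio in replicate 2 and the lowest in replicate 3 of ACKR4_KO. Without ACKR4_KO replicate 2 the log2 fold changes were -0.13 and -0.10, and without replicate 3 they were 0.49 and 0.86.

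**Figure D3:**
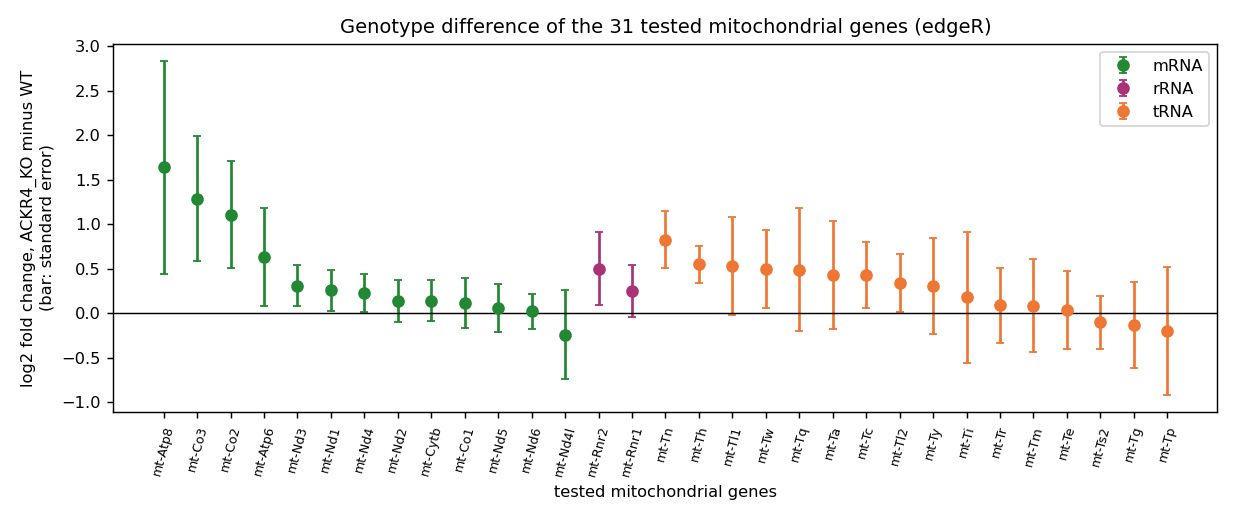
Log2 fold change of the 31 tested mitochondrial genes, ACKR4_KO minus WT, with standard errors from the edgeR fit and colours for mRNA, rRNA and tRNA. Positive values outnumber negative ones by 27 to 4, and no gene has an adjusted p under 0.661.

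Reads on tRNA genes were few and uneven. Of the 22 tRNA genes, 16 were tested, and the other 6 (mt-Tf, mt-Tv, mt-Ts1, mt-Td, mt-Tk and mt-Tt) had at most 5 reads each over all libraries, beside at least 170 for every tested tRNA. A count of 0 allows up to 3 reads, which is at most 0.318 per 1000000 reads of a library's unscaled total and covers counting error only. The 5 tRNA genes with the most reads are all encoded on the minus strand, although only 8 of the 22 are. The minus-strand tRNA genes held 86.1%, 85.9% and 85.8% of tRNA reads in WT and 85.9%, 82.8% and 86.4% in ACKR4_KO. Reads of a tRNA and of the strand opposite to it cannot be told apart here.

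The 3 tRNAs with the most reads are shown for orientation, each read 5′ to 3′ on the minus strand, with the anticodon in capitals. They are the tRNAs for proline (mt-Tp, chrM:15356-15422), cysteine (mt-Tc, chrM:5192-5257) and asparagine (mt-Tn, chrM:5089-5159), and the last pair are near neighbours.
mt-Tp: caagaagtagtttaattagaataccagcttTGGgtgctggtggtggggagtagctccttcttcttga
mt-Tc: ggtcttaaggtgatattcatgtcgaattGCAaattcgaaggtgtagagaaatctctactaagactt
mt-Tn: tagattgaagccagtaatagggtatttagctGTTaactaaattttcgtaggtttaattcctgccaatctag
mt-Tp had 3511, 2100 and 3372 reads in WT and 2927, 3484 and 409 reads in ACKR4_KO. The low value stood alone, at 8.74% of the tRNA reads of that library against 30% to 37.6% in the other 5 libraries. mt-Tn had 1026, 710 and 817 reads in WT and 862, 1244 and 1993 reads in ACKR4_KO. Replicate 3 of ACKR4_KO was thus the lowest library for mt-Tp and the highest for mt-Tn, which made up 42.6% of its tRNA reads and 8.41% to 12% elsewhere. mt-Tc had 2122, 1463 and 2554 reads in WT and 2965, 3139 and 1184 reads in ACKR4_KO. mt-Te, the tRNA for glutamate, had 60.7, 48.4 and 67.0 CPM in WT and 72.1, 84.9 and 23.6 CPM in ACKR4_KO.

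**Figure D4:**
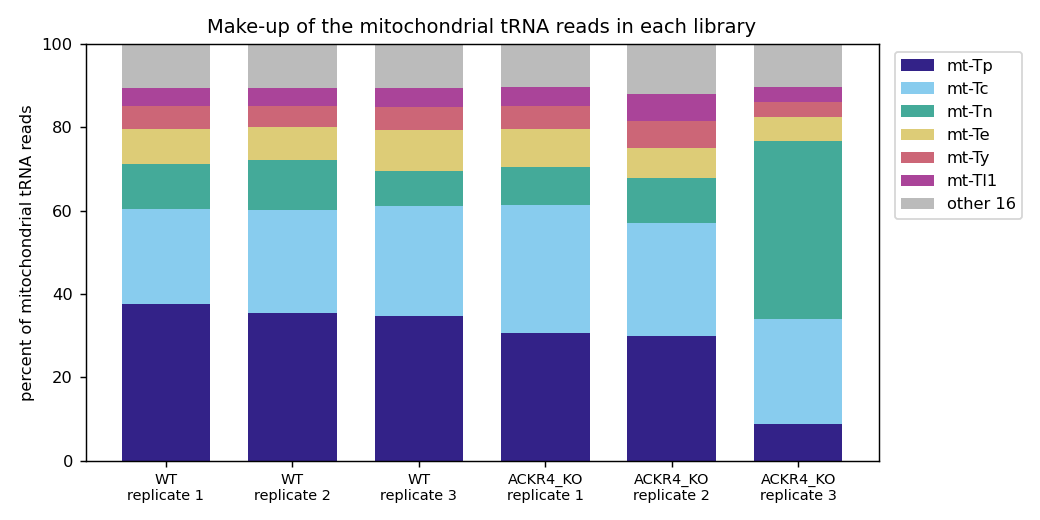
Make-up of the mitochondrial tRNA reads in each library, as stacked percentages of the tRNA reads. The ACKR4_KO replicate 3 library has mt-Tn at 42.6% and mt-Tp at 8.74%, while mt-Tp is at 30% or more in the other 5 libraries.

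Between genotypes, mt-Tn had a log2 fold change of 0.83 ± 0.32 SE (edgeR adjusted p = 0.661) with overlapping groups, and with mt-Th it was one of the pair with an unadjusted p under 0.05. The value for mt-Tp was -0.20 ± 0.72 SE (edgeR adjusted p = 0.956), for mt-Tc 0.43 ± 0.37 SE (edgeR adjusted p = 0.786) and for mt-Te 0.034 ± 0.44 SE (edgeR adjusted p = 0.986). Without ACKR4_KO replicate 3 mt-Tn was at 0.50 and mt-Tc at 0.78, and without ACKR4_KO replicate 2 mt-Tc was at 0.07. mt-Th, the tRNA for histidine, was singled out after its values were seen, because it was the 1 gene of the 31 (3.23%) whose groups did not overlap, while 6.53% of all genes were higher in every ACKR4_KO library. It had 5.06, 5.97 and 4.41 CPM in WT and 7.03, 8.2 and 7.33 CPM in ACKR4_KO (log2 fold change 0.55 ± 0.21 SE, edgeR adjusted p = 0.661). Across the 16 tested tRNAs, 13 had a higher and 3 a lower fitted level in ACKR4_KO, 0 passed, and the median log2 fold change was 0.32. The 11 tRNAs not named above lay between -0.13 (mt-Tg) and 0.53 (mt-Tl1). In CPM, ACKR4_KO replicate 2 was the highest library for 14 of the 16, and ACKR4_KO replicate 3 the lowest for 14. On unscaled totals ACKR4_KO replicate 2 was no longer the highest for mt-Tg, mt-Th and mt-Ts2.

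Respiratory complexes are built from mitochondrial and nuclear gene products, so 26 nuclear-encoded partner subunits were set beside the mitochondrial genes. All 26 had a positive log2 fold change, with a median of 0.33 beside 0.012 for all genes tested, and 0 passed the edgeR test. An unadjusted p under 0.05 was reached by 7 of them, where 7.45% of all genes did. This number was 1, 3 and 0 without WT replicates 1, 2 or 3 and 11, 4 and 12 without ACKR4_KO replicates 1, 2 or 3, in fits whose shares over all genes were those given above for the mitochondrial genes. Their summed level was 18193, 20308 and 16921 CPM in WT and 20620.0, 28130.3 and 21281 CPM in ACKR4_KO, with no overlap. The margin between WT replicate 2 and ACKR4_KO replicate 1 was narrow and rested on the TMM scaling. On unscaled totals the groups overlapped through these libraries. Taken singly, 6 of the 26 (23.1%) were higher in every ACKR4_KO library than in any WT library, where 6.53% of all genes were. Without ACKR4_KO replicate 2, 21 of 26 were positive with a median of 0.15. Scaled to mitochondrial mRNA reads, 21 of 26 were also positive with a median of 0.15, and 1 had an unadjusted p under 0.05, where the median of all genes was -0.12.

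Cox6a2, the muscle form of a complex IV subunit, had 981, 1033 and 850.3 CPM in WT and 1178, 1523 and 1404 CPM in ACKR4_KO. Every ACKR4_KO library exceeded every WT library (log2 fold change 0.52 ± 0.17 SE, edgeR adjusted p = 0.661). Cox5b, another complex IV subunit, had 380.1, 384 and 348 CPM in WT and 387, 622 and 659 CPM in ACKR4_KO (log2 fold change 0.58 ± 0.21 SE, edgeR adjusted p = 0.661). The groups did not overlap, by a narrow margin for ACKR4_KO replicate 1. Atp5b and Atp5a1, the catalytic beta and the alpha subunit of the ATP synthase, had the highest levels of the list and log2 fold changes of 0.28 ± 0.20 SE and 0.33 ± 0.20 SE (edgeR adjusted p = 0.75 and 0.707).

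Reads of mitochondrial mRNA per read of the partner subunits were 10.2, 7.25 and 10.4 in WT and 8.74, 8.12 and 7.3 in ACKR4_KO. The means were 9.27 ± 1.75 (SD, n = 3) and 8.05 ± 0.726 (SD, n = 3), and the groups overlapped through WT replicate 2. The partner sum moved with the cardiomyocyte markers, whose summed level was 35425.5, 36394 and 29396 CPM in WT and 38773, 50477 and 45161 CPM in ACKR4_KO, also without overlap, with 9 of 10 markers positive and 0 called. Partner reads per cardiomyocyte marker read were 0.514, 0.558 and 0.576 in WT and 0.532, 0.557 and 0.471 in ACKR4_KO, which overlapped. Mitochondrial mRNA reads per cardiomyocyte marker read were 5.23, 4.05 and 5.96 in WT and 4.65, 4.52 and 3.44 in ACKR4_KO. In whole tissue, fewer cells of a type and less RNA per cell cannot be told apart.

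**Figure D5:**
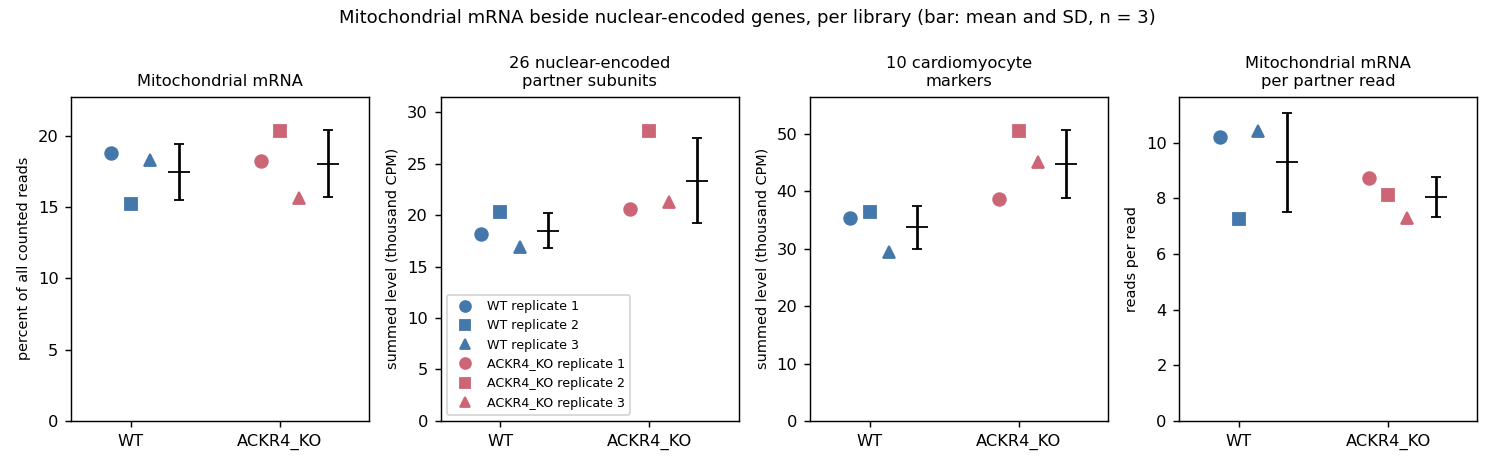
Mitochondrial mRNA share, summed level of 26 nuclear-encoded partner subunits, summed level of 10 cardiomyocyte markers and mitochondrial mRNA reads per partner read, in each library by genotype (bars: mean and SD, n = 3). The mRNA share, a percent of unscaled counted reads, overlaps between genotypes. Both summed levels, in TMM-scaled CPM, are higher in every ACKR4_KO library than in any WT library. On unscaled totals the partner sum overlaps too, through WT replicate 2 and ACKR4_KO replicate 1.

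Genes that make, cut and maintain mitochondrial RNA gave 0 calls in edgeR. Transcription factors and the polymerase were fitted higher in ACKR4_KO for 5 of 6 tested genes (median 0.08 on the log2 scale). Tfam, which packages the genome and opens its promoters, had 38.5, 45.2 and 39.5 CPM in WT and 37, 42.8 and 36.1 CPM in ACKR4_KO (log2 fold change -0.09 ± 0.12 SE, edgeR adjusted p = 0.875). Tfb2m, the initiation factor, and Tefm, the elongation factor, were at 0.13 ± 0.16 SE and 0.21 ± 0.20 SE on the log2 scale (edgeR adjusted p = 0.846 and 0.809). Each of these overlapped between groups.

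Transcript processing had 9 of 11 genes higher with a median of 0.13. Hsd17b10, a subunit of the nuclease that cuts the 5′ end of tRNAs, had 90.1, 94.8 and 85.5 CPM in WT and 104.8, 146 and 94.6 CPM in ACKR4_KO. Only ACKR4_KO replicate 3 and WT replicate 2 overlapped, narrowly (log2 fold change 0.35 ± 0.17 SE, edgeR adjusted p = 0.682). Fastkd3, Fastk and Grsf1, RNA-binding proteins of the mitochondrion, were at log2 fold changes of 0.39, 0.26 and 0.17 (edgeR adjusted p = 0.696, 0.757 and 0.821). For tRNA maturation 3 of 7 genes were higher, with a median of -0.02. Pus1, a pseudouridine synthase, was at 0.29 and Nsun3, a methyltransferase of the methionine tRNA, at -0.27, while Gtpbp3, which modifies the wobble base, was at -0.12 and Trnt1, which adds the CCA end, at -0.10 (edgeR adjusted p from 0.699 to 0.863).

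Among genes of mRNA stability and decay, 5 of 7 were higher with a median of 0.18. Lrpprc, which protects mitochondrial mRNAs, had 140.1, 143 and 119.7 CPM in WT and 163, 179 and 131 CPM in ACKR4_KO (log2 fold change 0.23 ± 0.15 SE, edgeR adjusted p = 0.721). Supv3l1, the helicase of the degradosome, was at 0.19 and the oligoribonuclease Rexo2 at 0.18 (edgeR adjusted p = 0.739 and 0.85). Genes of rRNA maturation were higher in 7 of 10 cases with a median of 0.19. The rRNA methyltransferases Mrm1 and Mrm3 were at 0.31 and 0.40, and Dhx30 and Nsun4, both needed for ribosome assembly, at -0.02 and -0.01 (edgeR adjusted p from 0.691 to 0.987). In the DNA maintenance list 8 of 11 were higher, with a median of 0.10. Tk2, the thymidine kinase of the mitochondrion, had 18.7, 18.9 and 20.6 CPM in WT and 18, 15 and 16 CPM in ACKR4_KO, where every library was lower than in WT, as for 7.63% of all genes (log2 fold change -0.25 ± 0.14 SE, edgeR adjusted p = 0.693). It was the 1 gene of these 11 to do so. The other way, 2 of the 11 (18.2%) were higher in every ACKR4_KO library, where 6.53% of all genes were. Ssbp1, which coats single-stranded DNA, was at 0.26, Polg, the DNA polymerase, at 0.10 and Rrm2b, a ribonucleotide reductase subunit, at -0.08 (edgeR adjusted p from 0.693 to 0.92).

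Measures of RNA type and of other cells that could carry mitochondrial reads were summed in the same libraries. Genes listed as RNAs without a poly(A) tail summed to 62.9, 71.5 and 55.8 CPM in WT and 50.4, 77.0 and 63.7 CPM in ACKR4_KO. Of these 11 genes, 4 had 0 reads in all libraries, and the groups overlapped. The histone gene Hist1h2bc alone supplied 60.2, 67 and 51.7 CPM in WT and 47, 72.1 and 60.5 CPM in ACKR4_KO of these sums, and no other member exceeded 3.28 CPM. Whether its transcripts lack a tail in these hearts was not tested, so the sum does not measure RNA without a tail. RNAs retained in the nucleus summed to 461, 385.0 and 379.8 CPM in WT and to 676, 538 and 1057 CPM in ACKR4_KO, without overlap and with replicate 3 of ACKR4_KO highest. Of the 3 tested members only Malat1 was higher in every ACKR4_KO library, as were 6.53% of all genes. Neat1 and Meg3 overlapped between groups. Fibroblast markers summed to 9812.5, 11130.3 and 10414.5 CPM in WT and 9079.5, 3635 and 13094 CPM in ACKR4_KO, so that the ACKR4_KO library with the largest mitochondrial share had the lowest fibroblast sum. Erythrocyte markers summed to 319, 297.5 and 263 CPM in WT and 201, 639 and 137 CPM in ACKR4_KO. Brown adipocyte markers summed to 35.4 to 59.6 CPM and white adipocyte markers to 1.31 to 54.8 CPM, both overlapping between groups. The part of these in the mitochondrial values was not tested.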

How the data were processed

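The 6 libraries, 3 WT and 3 ACKR4_KO, hold RNA extracted with Trizol from flash-frozen mouse hearts, of which 1 ug went into the NEBNext Ultra RNA kit, per the labels' protocols. The authors deposited a single table of raw counts (reads per gene, not normalized), in which 0 rows name no gene. The submitters' processing notes name CASAVA 1.8.2, HISAT2, HTSeq 0.6.0 and mm10. No annotation release, strand setting or rule for reads with several matches is given in the sources used here. Groups and replicate numbers came from the sample descriptions.

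A symbol was found for 54409 of 54532 rows. Members, gene lists, markers and tests were chosen with earlier results of these data known. Positions and sequences came from GENCODE M21 transcripts on GRCm38. Look-alike rows were found with blastn 2.17.0 at 90% identity over 80% of the row, and near-identical ones at 99%. Genes passed filterByExpr (minimum count 10, total 15) and were fitted in edgeR 4.0.16 (R 4.3.3) with TMM factors of 0.891 to 1.05 and the robust two-sided quasi-likelihood test. P-values were adjusted by Benjamini-Hochberg across 14406 genes at a threshold of 0.05. The script was tested on simulated data. CPM are TMM-scaled, while RPKM use the total count and the gene length. A log2 fold change is the ACKR4_KO value less the WT value, and its standard error is its size over the root of the quasi-likelihood statistic. Shares were compared by exact permutation tests (scipy 1.17.1).

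All mRNAs and rRNAs were named, the 4 tRNAs with the most reads, and in each nuclear list the 2 genes with the smallest p and the 2 with the highest level. Alternatives were other scalings and filters, limma-voom (limma 3.58.1), DESeq2 1.42.0, the replicate block, and each library left out. The addition of look-alike rows and the split by the copied stretch were chosen after seeing the data.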

Additional observations from a re-analysis of the deposited data

How the results depend on the processing

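The count of mitochondrial genes called was 0 under every alternative run, among 18 fits, and the smallest adjusted p of a member lay between 0.137 and 1.0. The nuclear partner and machinery lists had 0 calls under each as well. All 10 alternatives that turned the sign of a share or ratio, and all 50 that turned the sign of a gene, concerned values that did not pass a test. The cause was not tested. Leaving out each library in turn moved the difference in mitochondrial share from -0.557 to 2.14 points, mRNA share from -0.499 to 1.84, rRNA share from -0.0483 to 0.273 and tRNA share from -0.00904 to 0.0233. It moved rRNA per 100 mitochondrial mRNA reads from -0.261 to 1.06, tRNA per 100 from -0.0494 to 0.0795 and mt-Nd6 per 100 from -0.325 to -0.107. The tRNA ratio was -0.0244 as a mean log2 ratio. With the TMM-scaled library size as the denominator, the difference was 2.05 points for all mitochondrial reads and 1.86 for mRNA (exact permutation p = 0.5 for each). It was 0.176 points for rRNA and 0.0122 for tRNA (exact permutation p = 0.7 for each).

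Leaving out each library moved log2 fold changes that turned sign from -0.13 to 0.49 for mt-Rnr1, -0.10 to 0.86 for mt-Rnr2, -0.061 to 0.27 for mt-Nd2, -0.10 to 0.30 for mt-Co1, -0.76 to 2.4 for mt-Atp8, -0.63 to 0.33 for mt-Nd4l, -0.10 to 0.26 for mt-Nd5 and -0.078 to 0.15 for mt-Nd6. Without a turn of sign, the range was 0.66 to 1.58 for mt-Co2, 0.64 to 1.92 for mt-Co3, 0.036 to 1.03 for mt-Atp6, 0.016 to 0.53 for mt-Nd3, 0.12 to 0.33 for mt-Nd1, 0.14 to 0.30 for mt-Nd4, 0.04 to 0.20 for mt-Cytb, 0.50 to 1.11 for mt-Tn, 0.07 to 0.78 for mt-Tc and 0.45 to 0.67 for mt-Th. Among tRNAs that turned sign the ranges were -0.22 to 0.94 for mt-Tl1, -0.74 to 0.69 for mt-Ti, -0.50 to 0.98 for mt-Tq, -0.52 to 0.50 for mt-Tm, -0.08 to 0.86 for mt-Tw, -0.12 to 0.91 for mt-Ta, -0.35 to 0.73 for mt-Ty, -0.41 to 0.30 for mt-Tg, -0.11 to 0.43 for mt-Tr, -0.28 to 0.15 for mt-Ts2, -0.11 to 0.58 for mt-Tl2, -0.29 to 0.42 for mt-Te and -0.82 to 0.31 for mt-Tp. Scaled to mitochondrial mRNA reads, mt-Ti was -0.08, mt-Tm -0.13, mt-Nd2 -0.02, mt-Co1 -0.05, mt-Tr -0.068, mt-Nd5 -0.087, mt-Nd6 -0.13 and mt-Te -0.17. In limma-voom mt-Ti was -0.46, mt-Tq -0.12, mt-Tm -0.23, mt-Ty -0.0023, mt-Nd4l 0.015 and mt-Te -0.15.

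Samples with the same replicate number correlated by 0.0665, 0.0527 and 0.125 in their deviations from the group means, so the numbers were not taken as pairs. With the replicate block, members called were 0, mt-Ti was -0.17, mt-Tm -0.10 and mt-Te -0.12. The differences in share (0.754 points for all mitochondrial reads, 0.625 for mRNA, 0.123 for rRNA and 0.00627 for tRNA) cannot change with the block. The same holds for the differences per 100 mRNA reads (0.439 for rRNA, 0.00866 for tRNA and -0.223 for mt-Nd6). Each is a mean of paired differences, which equals the difference of the means, so only the p could differ. The paired exact permutation p was 0.25 for mt-Nd6 per 100 and at least 0.75 for the rest. At this depth 6 of 22 tRNAs had at most 5 reads in all and were not tested.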

Other observations

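The nuclear genes whose levels tracked the summed mitochondrial mRNA level most closely over the 6 libraries, among 1573 genes with a mean of at least 100 CPM, were Papola (Pearson r 0.978), R3hdm2 (0.972), Gnpat (0.964), Clic4 (0.962) and Epb41 (0.958), all on log2 CPM. These libraries share the scaling to library size, and the correlations are descriptions across libraries of both genotypes with no test. Papola, a nuclear poly(A) polymerase, had 106.5, 95.5 and 101.6 CPM in WT replicates 1, 2 and 3 and 101.0, 117 and 95.8 CPM in ACKR4_KO replicates 1, 2 and 3. Gnpat, which starts ether lipid synthesis in peroxisomes, had 211, 179 and 195 CPM in WT and 219.8, 279.7 and 172.5 CPM in ACKR4_KO. In each, ACKR4_KO replicate 2 was highest, as for the summed mitochondrial mRNA share, which follows largely from how these genes were picked.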
